A study of Mus musculus with 6 samples.

Results

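The conventional dendritic cell (cDC) subset genes described here are 10 genes taken by symbol from a table of 21761 mouse genes: Zbtb46, Batf3, Clec9a, Xcr1, Cadm1, Wdfy4, Naaa, Cd209a, Mgl2 and Sirpa. All 10 were found, each as 1 row. The table holds RNA-seq values of 6 libraries of bone marrow cells from male C57BL/6J mice. There were 2 libraries of uncultured marrow from day 0 (replicates II, III), 2 of day 4 cells labelled common myeloid progenitors (CMP; replicates I and II) and 2 of day 7 cells labelled bone marrow derived dendritic cells (BMDC; replicates III and IV). Cultures contained a supernatant with Flt3 ligand, the growth factor of dendritic cell development, and, per the labels, every live cell was taken at days 4 and 7, so the libraries mix cell types. The labels do not say whether replicates are separate animals or cultures. The p-values therefore speak of the spread among these samples alone, which may be technical.

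Conventional dendritic cells take up antigen and present it to T cells. They fall into a type 1 subset (cDC1), which presents antigen from dead cells to CD8 T cells and depends on the transcription factor BATF3, and a type 2 subset (cDC2), which mainly primes CD4 T cells. Both carry the transcription factor ZBTB46. In cultures of marrow with Flt3 ligand, counterparts of both subsets and plasmacytoid dendritic cells are known to form.

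The libraries differed in depth and in background. Total reads in genes ran from 157797 and 322837 on day 0 over 1365635 and 3852628 on day 4 to 10951745 and 16149088 on day 7, a range of 102-fold. As a measure of background, the reads of 1449 receptor genes for odorants, pheromones and trace amines, which marrow cells are not known to use, were pooled and divided by their summed length. This receptor level was 8.71 RPKM (reads per kilobase of gene length, scaled to a common library total) in day 0 library II, 8.29 RPKM in day 0 library III, 4.33 RPKM in day 4 library I and 0.846 RPKM in day 4 library II. On day 7 it was 0.0218 RPKM in library III and 0.0236 RPKM in library IV. The level thus fell with the day of culture, and the smallest signal that could be told from it fell too. It is a pooled mean, and the median receptor gene was lower. That median was 3.11 and 2.47 RPKM on day 0, 2.28 and 0.279 RPKM on day 4, and 0 RPKM on day 7. A value under the pooled level can therefore exceed most receptor genes. Of the 10 genes, 2 and 4 lay above the receptor level in day 0 libraries II and III, 6 and 7 in day 4 libraries I and II, and 10 and 8 in day 7 libraries III and IV. Counting only genes whose exact Poisson 95% interval lay above it, the numbers were 2, 2, 4, 7, 9 and 7 in the same order. Such intervals hold the error of counting alone, since copies made by PCR are no separate molecules. The share of all genes above the receptor level was not counted. In day 0 library II, Wdfy4 lay under that level and yet above 74.5% of all genes. In day 7 library III, Zbtb46 lay above that level and above only 39.6% of all genes. The rising counts follow the falling level and are no result about these 10 genes.

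**Figure D1:**
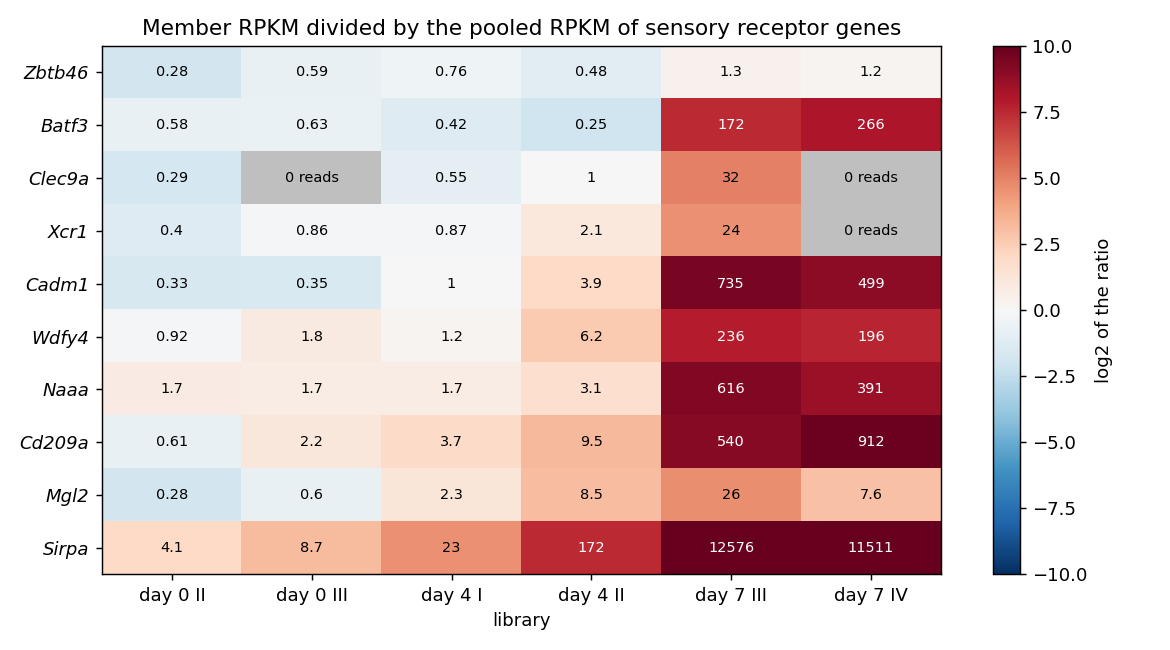
Level of each gene (rows) in each library (columns), divided by the pooled RPKM of the sensory receptor genes in that library; the number is the ratio, the colour its log2, and grey stands for 0 reads. Sirpa was above the receptor level in all 6 libraries, and Zbtb46 lay between 0.276 and 1.32 times that level throughout.

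Zbtb46, which encodes the transcription factor that sets cDCs apart from macrophages and plasmacytoid cells, was barely detected at any time. It had 2.40 RPKM (5 reads) and 4.91 RPKM (5 reads) in day 0 libraries II and III. On day 4 it had 3.29 RPKM (29 reads) in library I and 0.402 RPKM (10 reads) in library II. On day 7 it had 0.0288 RPKM (3 reads) in library III and 0.0283 RPKM (2 reads) in library IV, although these were the deepest libraries. Values fell from day 0 to day 7 without overlap, while both day 4 values stood above both day 7 values and overlapped those of day 0. Against the receptor level of the same library the gene was lower in all 4 libraries of day 0 and day 4, at 0.276, 0.593, 0.761 and 0.476 times it, and close to it on day 7, at 1.32 and 1.20 times. The log2 fold change of day 7 against day 0 was -2.12 ± 0.72 (± SE here and below, limma adjusted p = 0.0462), on the scale of log2(RPKM + 1), which understates the change of low genes. That difference turned to 0.08 under quantile normalization (limma adjusted p = 0.914); the receptor level fell over the same days. The call was also lost with a pseudocount of 5 (limma adjusted p = 0.075) and with no filter on low values (limma adjusted p = 0.0814). It was lost too without day 0 library III (log2 fold change -1.72), day 7 library III or day 7 library IV (-2.12 each). Those fits leave 1 library in a group, and lower calls became fewer over all genes as well. In pooled reads scaled by depth, day 7 held 0.00887 times the day 0 level (5 against 10 reads, exact 95% interval 0.00238 to 0.0285). That interval holds counting error alone and not the spread between libraries. In these bulk libraries fewer cells of a type and less RNA per cell cannot be told apart. The receptor level was 8.71 and 8.29 RPKM on day 0 and 0.0218 and 0.0236 RPKM on day 7. Its part in the ratio of pooled reads was not tested.

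**Figure D2:**
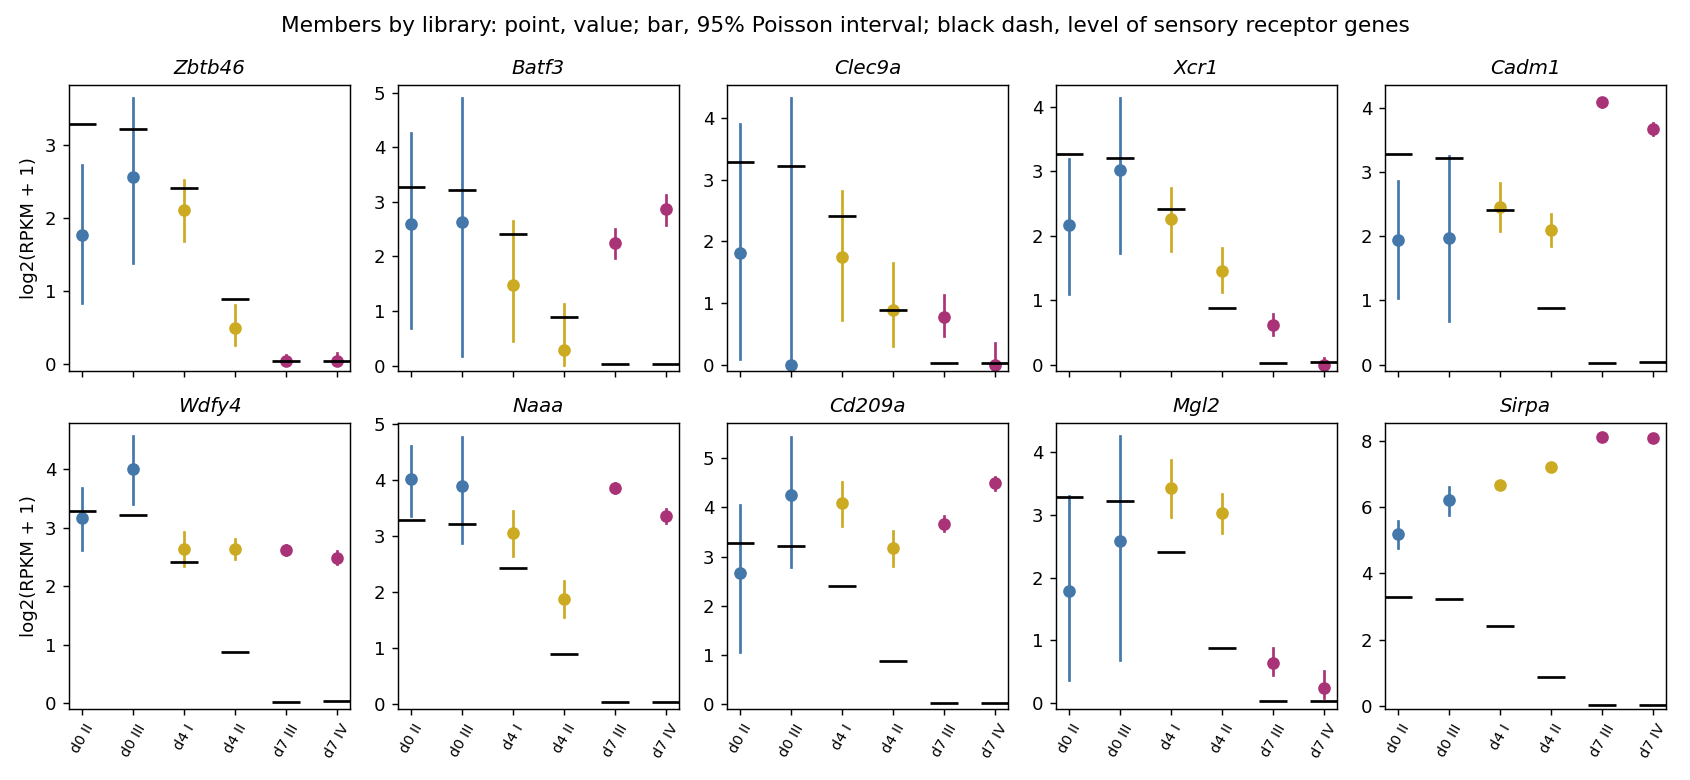
Values of the 10 genes by library as log2(RPKM + 1), each panel on its own axis that starts near 0; points are values, bars exact Poisson 95% intervals, black dashes the receptor level, and colours the day (d0, d4, d7) with the replicate. On day 7 Zbtb46 lies on the dashes, while Batf3, Cadm1, Wdfy4, Naaa, Cd209a and Sirpa lie well above them.

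Among the genes of the cDC1 subset, Clec9a and Xcr1 are the most specific surface receptors. CLEC9A is a C-type lectin that senses the actin filaments of dead cells, and XCR1 is the receptor for the chemokine XCL1. Clec9a had 2.51 and 0 RPKM on day 0 (1 and 0 reads) and 2.37 and 0.841 RPKM on day 4 (4 reads each). On day 7 it had 0.703 RPKM (14 reads) in library III and 0 reads in library IV, where a floor of 3 reads stood at 0.222 RPKM. Values of the 3 days overlapped in part: both day 7 values lay below both day 4 values, and the day 0 values spanned them. None of the 4 libraries of day 0 and day 4 had Clec9a above the receptor level, whereas day 7 library III had it at 32.2 times that level.

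Xcr1 had 3.48 and 7.12 RPKM on day 0 (5 reads in each library), 3.78 and 1.75 RPKM on day 4 (23 and 30 reads), and 0.528 and 0 RPKM on day 7 (38 and 0 reads). Both day 7 values lay below all 4 earlier ones, and the replicates of day 7 differed as for Clec9a, with reads in library III alone. The difference of day 7 against day 0 was -2.29 ± 0.63 (log2, limma adjusted p = 0.0259). It was -0.54 under quantile normalization (limma adjusted p = 0.553). It lost its call without day 0 library III (-1.86), day 7 library III (-2.59) or day 7 library IV (-1.98). Those fits leave 1 library in a group, and lower calls became fewer over all genes too. Day 0 values were 0.399 and 0.859 times the receptor level, so Xcr1 was not above that pooled level there. Of the receptor genes, 26.9% and 17.5% had as much or more.

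Batf3, the AP-1 family factor on which the cDC1 subset depends, took another course. It had 5.07 and 5.19 RPKM on day 0, from 2 and 1 reads, and 1.80 and 0.212 RPKM on day 4, from 3 and 1 reads. On day 7 it had 3.75 RPKM (74 reads) in library III and 6.28 RPKM (84 reads) in library IV. Point values were lowest on day 4, with no overlap with day 0 or day 7. Against day 0 this order rests on 1 to 3 reads a library, all under the receptor level. Exact Poisson intervals were 0.614 to 18.3 and 0.131 to 28.9 RPKM on day 0. They overlapped those of day 4, at 0.371 to 5.25 and 0.00538 to 1.18 RPKM. Pooled reads scaled by depth gave day 4 at 0.123 times day 0 (4 against 3 reads, exact interval 0.0208 to 0.838). Day 4 against day 0 did not pass (-1.73 ± 0.60, limma adjusted p = 0.127). Day 7 values were 172 and 266 times the receptor level, against 0.251 to 0.626 times before. Day 7 exceeded day 4 by 1.67 ± 0.60 (log2, limma adjusted p = 0.111), which did not pass. It passed with voom on recovered reads (2.53, limma adjusted p = 0.0399). For day 7 against day 0 the value was -0.06 (limma adjusted p = 0.946). Taking the receptor level off, or thinning every library to the smallest, sets both day 4 values of Batf3 to 0, so those settings test nothing here.

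Cadm1, a cell adhesion molecule of cDC1 that many other cell types also carry, was higher on day 7. It had 2.86 and 2.93 RPKM on day 0 (6 and 3 reads), 4.51 and 3.28 RPKM on day 4 (40 and 82 reads), and 16.02 and 11.8 RPKM on day 7 (1679 and 837 reads). Point values of the 3 days did not overlap, and both day 0 values were below the receptor level. Exact Poisson intervals on day 0 were 1.05 to 6.23 RPKM in library II and 0.604 to 8.56 RPKM in library III. They overlapped the intervals of day 4 and lay below those of day 7. The day 0 SD given next is smaller than this counting error. Cadm1 rose from 2.90 ± 0.0465 RPKM on day 0 to 13.9 ± 3.002 RPKM on day 7 (mean ± SD, n = 2 libraries; log2 fold change 1.92 ± 0.45, limma adjusted p = 0.017). That call was lost with voom (limma adjusted p = 0.0588) and after thinning (limma adjusted p = 0.118). It was also lost without day 7 library III (1.71) or IV (2.13). Those fits leave 1 library in a group, and higher calls became fewer over all genes too. Day 7 against day 4 gave 1.60 ± 0.45 (limma adjusted p = 0.0548), just outside the threshold of 0.05, and passed in 8 of 16 alternative settings.

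Naaa, a lysosomal amidase that splits fatty acid ethanolamides, and Wdfy4, a BEACH domain protein needed for cross-presentation by cDC1, had no change called by limma in the 3 comparisons. Naaa had 15.0 and 13.8 RPKM on day 0 (20 and 9 reads), 7.28 and 2.64 RPKM on day 4 (41 and 42 reads), and 13.4 and 9.24 RPKM on day 7 (894 and 417 reads). Day 4 was below both other days without overlap. Its difference of day 7 against day 4 was 1.15 ± 0.50 (limma adjusted p = 0.172), and passed with voom (1.62, limma adjusted p = 0.015) and with the receptor level taken off (1.87, limma adjusted p = 0.0469). Wdfy4 had 7.999 and 15.1 RPKM on day 0 (25 and 23 reads), 5.22 and 5.23 RPKM on day 4 (69 and 195 reads), and 5.16 and 4.62 RPKM on day 7 (806 and 490 reads). From day 4 to day 7 the difference was -0.08 with a 95% interval of -1.15 to 0.98 (log2, limma adjusted p = 0.896), and its sign turned in 3 of 16 alternative settings. For Wdfy4 the difference of day 7 against day 0 was -1.03 ± 0.46 (limma adjusted p = 0.104) and passed without day 0 library II (limma adjusted p = 0.0379). The receptor level bears on both genes: Naaa stood at 1.67 to 1.73 times it on day 0 and in day 4 library I, and at 616 and 391 times it on day 7. For Wdfy4 the ratios were 0.919 and 1.82 on day 0, 1.21 and 6.18 on day 4, and 236 and 196 on day 7.

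Of the genes of the cDC2 subset, Cd209a and Mgl2 encode C-type lectins that bind sugars on microbes and host proteins, and Sirpa an inhibitory receptor for CD47 that macrophages, monocytes and granulocytes carry as well. Sirpa was the most abundant of the 10 genes on each day. It had 35.4 and 72.5 RPKM on day 0 (50 reads in each library), 101.0 and 146 RPKM on day 4 (603 and 2453 reads), and 274 and 272 RPKM on day 7 (19362 and 13015 reads). The days did not overlap, and Sirpa was above the receptor level in all 6 libraries, from 4.07 times it in day 0 library II to 12576 times it in day 7 library III. It rose from 54.0 ± 26.2 to 273 ± 1.71 RPKM between day 0 and day 7 (log2 fold change 2.41 ± 0.47, limma adjusted p = 0.00937). That call was lost under quantile normalization, which gave 0.78 (limma adjusted p = 0.358). It was also lost without day 7 library III (2.40) or IV (2.41). Those fits leave 1 library in a group, and higher calls became fewer over all genes too. Neither step alone passed, with 1.24 ± 0.47 for day 4 against day 0 (limma adjusted p = 0.151) and 1.16 ± 0.47 for day 7 against day 4 (limma adjusted p = 0.145). The first passed without day 0 library III (limma adjusted p = 0.0222), and the second in 4 of 16 alternative settings, among them voom (limma adjusted p = 0.00533) and without day 0 library II or III (limma adjusted p = 0.022 and 0.021).

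Mgl2 was highest on day 4 and fell after it. It had 2.44 and 4.98 RPKM on day 0 (2 reads in each library), 9.79 and 7.14 RPKM on day 4 (34 and 70 reads), and 0.560 and 0.180 RPKM on day 7 (23 and 5 reads). The 3 days did not overlap. From day 4 to day 7 Mgl2 fell from 8.47 ± 1.87 to 0.370 ± 0.269 RPKM (log2 fold change -2.79 ± 0.56, limma adjusted p = 0.0164). No other of the 10 genes was called by this test between those days. The limma adjusted p was 0.0898 under quantile normalization, 0.0743 after thinning and 0.053 with no filter on low values. The call was also lost without day 4 library I or II, or day 7 library III or IV. Those fits leave 1 library in a group, and calls between these days became fewer over all genes, so the loss says little about Mgl2. The fold change stayed between -2.99 and -1.73 in all of these settings. Pooled reads scaled by depth gave a day 4 level 19.3 times that of day 7 (104 against 28 reads, exact 95% interval 12.6 to 30.4). That interval holds counting error alone and not the spread between libraries. Day 4 against day 0 did not pass (1.05 ± 0.56, limma adjusted p = 0.28), turned to -0.39 after thinning every library to the smallest (limma adjusted p = 0.568), and passed under quantile normalization (2.09, limma adjusted p = 0.0496). Mgl2 stood at 0.280 and 0.601 times the receptor level on day 0, and at 2.26 and 8.45 times it on day 4. Mgl2 was also called lower on day 7 than on day 0 (-1.74 ± 0.56, limma adjusted p = 0.0402), a difference that turned to 0.36 under quantile normalization. It also turned to 0.42 with the receptor level taken off, a setting that puts both day 0 values at 0. That call held in 5 of 16 alternative settings. It was lost without day 4 library I or II (limma adjusted p = 0.0534 and 0.0539). It was also lost without day 0 library III or either day 7 library (log2 fold change -1.94 to -1.34). Those fits leave 1 library in a group, and lower calls became fewer over all genes too.

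Cd209a did not follow Mgl2. It had 5.33 and 18.2 RPKM on day 0 (3 and 5 reads), 15.97 and 8.05 RPKM on day 4 (38 and 54 reads), and 11.8 and 21.5 RPKM on day 7 (331 and 411 reads). Values of all 3 days overlapped, and day 7 against day 4 gave 0.45 with a 95% interval of -0.96 to 1.87 (log2, limma adjusted p = 0.577). On day 7 Cd209a stood at 540 and 912 times the receptor level, while Mgl2 stood at 25.7 and 7.60 times it.

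The start regions of these 2 lectin genes are printed because the genes parted on day 7, a choice made after their values were seen, and the RNA data do not test them. They are from RefSeq on build GRCm38.p6, not the build named for the data, run 5′ to 3′ from 80 bases before to 10 bases after the listed start, and the Cd209a stretch has in capitals a match on the opposite strand to the composite letter pattern of ETS and IRF factors, which allows any base in its middle.
Cd209a, chr8:3748975-3749064, minus strand: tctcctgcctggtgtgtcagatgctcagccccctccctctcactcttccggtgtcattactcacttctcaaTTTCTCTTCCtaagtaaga
Mgl2, chr11:70130277-70130366, plus strand: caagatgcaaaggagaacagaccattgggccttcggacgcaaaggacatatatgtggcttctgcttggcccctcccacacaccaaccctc
The 8 of 10 genes with an entry in that table (Batf3, Zbtb46, Naaa, Clec9a, Cd209a, Xcr1, Mgl2 and Wdfy4) were searched on both strands over the whole window of the table. Only the window of Cd209a held the composite pattern of ETS and IRF factors, which 2.72% of all 32851 windows held. The pattern of interferon response elements was in no window of these genes and in 3.44% of all, and the PU.1 pattern GAGGAAGT in none and 3.20%. Only the window of Zbtb46 held TGANTCA, the pattern of AP-1 and BATF factors, against 7.81% of all, and that match lies within one to the adjacent composite of IRF and AP-1 factors (0.125% of all). The listed start of Zbtb46 lies 35038 bases inside the gene as GENCODE M21 draws it, so that this window is not at its outer start. Those of Batf3, Wdfy4 and Mgl2 lie 567, 442 and 28 bases inside their genes, and that of Naaa 11 bases outside. No window of these genes held the spaced form of that composite (0.119% of all). Such matches describe letters and show neither binding nor its lack.

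Over the 10 genes, day 4 against day 0 gave 0 called higher and 0 called lower, beside 3.66% and 1.92% of the 19279 genes tested. At unadjusted p under 0.05 limma gave 1 higher (Sirpa) and 2 lower (Batf3 and Naaa), and voom on recovered reads called none either. For day 7 against day 4 limma called 0 of 10 higher and 1 lower, beside 5.85% and 6.75% of all genes, and at unadjusted p under 0.05 there were 3 higher (Batf3, Cadm1 and Sirpa) and 2 lower (Xcr1 and Mgl2). Voom called 4 higher and 3 lower in that step, beside 2396 higher and 10392 lower of all 19279 genes. Day 7 against day 0 gave 2 called higher (Cadm1 and Sirpa), beside 11.3% of all genes, and 3 called lower (Zbtb46, Xcr1 and Mgl2), beside 29.3%. At adjusted p under 0.05 the limma counts of all 3 comparisons, the 2 higher and 3 lower calls included, lie near those shares. They are no result about these genes. The comparisons share libraries and are not independent of each other. All 10 genes passed the filter of at least 1 RPKM in at least 2 libraries.

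The median log2 fold change of the 10 genes was -0.28, 0.19 and -0.43 in the order of the comparisons above, and that of all tested genes -0.40, -0.81 and -1.14. Quantile normalization moved the median of all genes to -0.04, 0.04 and -0.01. Relative to the median of all genes, day 7 against day 0 stood at 3.54 for Sirpa, 3.06 for Cadm1 and 1.76 for Cd209a, and at -0.61 for Mgl2, -0.99 for Zbtb46 and -1.15 for Xcr1. The shift of all genes and the receptor level move together with the day, and their part in the lower values of Zbtb46, Xcr1 and Mgl2 was not tested beyond the settings given.

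**Figure D3:**
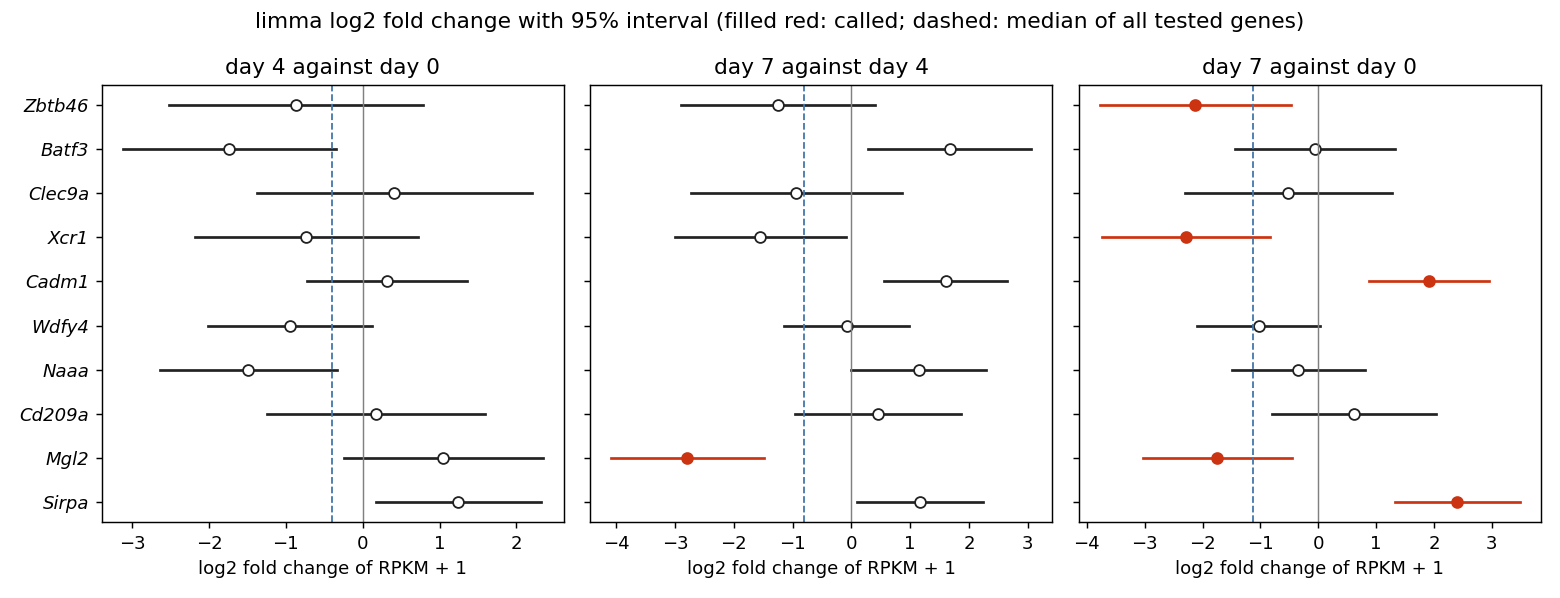
Log2 fold change of RPKM + 1 for each gene in the 3 comparisons, with 95% intervals from limma; filled red points passed adjusted p under 0.05, the grey line is 0 and the dashed line the median of all tested genes. Day 7 against day 0 shows Cadm1 (1.92) and Sirpa (2.41) to the right, and Zbtb46 (-2.12), Xcr1 (-2.29) and Mgl2 (-1.74) to the left of 0.

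Levels per length put the genes in a different order on each day. On day 7 the mean RPKM ran from Sirpa (273) over Cd209a (16.7), Cadm1 (13.9), Naaa (11.3), Batf3 (5.01) and Wdfy4 (4.89) to Mgl2 (0.370), Clec9a (0.351), Xcr1 (0.264) and Zbtb46 (0.0285). Library values of Cd209a, Cadm1 and Naaa overlapped from one to the next, as did those of Batf3 with Wdfy4, and those of Mgl2, Clec9a, Xcr1 and Zbtb46. The gaps below Sirpa, below Naaa and below Wdfy4 had no overlap. On day 4 Sirpa (123) was followed by Cd209a (12.01) and Mgl2 (8.47), and the other 7 genes ran from 5.22 RPKM (Wdfy4) to 1.01 RPKM (Batf3) with each overlapping the next. Among all genes of the library, Sirpa ranked 345 and 364 on day 7, and Zbtb46 ranked 13143 and 11929. Sirpa alone made up 83.4% and 85.3% of the reads of the 10 genes on day 7, against 42.0% and 48.5% on day 0.

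Other genes shared by both cDC subsets were followed as a list of 30, all of them tested. For day 7 against day 0, 4 were called higher and 11 lower, shares near the 11.3% and 29.3% of all genes. Ap1s3, an adaptor subunit of vesicle transport, fell from 703 and 509 RPKM to 2.65 and 4.604 RPKM (log2 fold change -7.05, limma adjusted p = 0.000606). Spi1, which encodes the myeloid master factor PU.1, rose from 92.9 and 47.5 to 245 and 262 RPKM (1.91, limma adjusted p = 0.0189). Ikzf1, a lymphoid and progenitor factor, fell from 27.1 and 38.4 to 6.51 and 3.28 RPKM (-2.55, limma adjusted p = 0.0057). Slamf7, a receptor of activated immune cells, rose from 2.18 and 2.98 to 49.3 and 40.8 RPKM (3.69, limma adjusted p = 0.00337). Flt3 and Itgax were singled out after their values were seen. Flt3, the receptor for the ligand in the culture, was at 1.22 and 1.97 RPKM on day 7, called lower than on day 0 (-2.22, limma adjusted p = 0.0303). Itgax, which encodes CD11c and is carried by dendritic cells and many macrophages, was at 24.7 and 25.9 RPKM and called higher (3.53, limma adjusted p = 0.0148). The list's median change was -0.63, beside -1.14 for all genes. Day 7 against day 4 called 3 higher and 7 lower, beside 5.85% and 6.75% of all genes. Day 4 against day 0 called 1 higher and 2 lower, beside 3.66% and 1.92%.

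Further cDC1 genes, 22 found and 21 tested, also went both ways, with 7 called higher and 8 lower on day 7 against day 0 (median -0.54), beside 11.3% and 29.3% of all genes. Id2, an inhibitor of E proteins needed for cDC1 and carried by many other leukocytes, rose from 87.7 and 14.9 to 1584 and 1438 RPKM (5.33, limma adjusted p = 0.00284). Cd36, a scavenger receptor of cDC1 and macrophages, rose from 19.2 and 18.2 to 475 and 437 RPKM (4.54, limma adjusted p = 0.00031). Cd24a, a surface glycoprotein of cDC1 and of immature red and B cells, was at 1.81 and 0.352 RPKM on day 7 (-7.83, limma adjusted p = 0.000118). Singled out after their values were seen, Irf8, which encodes the factor that starts the cDC1 fate, was higher on day 7 with 38.8 and 35.6 RPKM (1.25, limma adjusted p = 0.0343). Ly75, which encodes the uptake receptor DEC-205, and Itgae, which encodes CD103, had 0 reads in both day 7 libraries. Day 7 against day 4 called 5 higher and 2 lower, beside 5.85% and 6.75% of all genes. Day 4 against day 0 called 1 higher, beside 3.66% of all genes. It was the lysosomal thioesterase gene Ppt1 (3.02, limma adjusted p = 0.0122).

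Among 27 further cDC2 genes, all tested, 6 were called higher and 6 lower on day 7 against day 0 (median -0.40), beside 11.3% and 29.3% of all genes. Fcer1g, the signalling chain of Fc receptors in all myeloid cells, rose from 292 and 86.7 to 3358 and 3427 RPKM (4.40, limma adjusted p = 0.00603). Csf2rb, the common beta chain of the GM-CSF receptor, rose from 34.8 and 52.5 to 176 and 177 RPKM (2.02, limma adjusted p = 0.00879). Klf4, a factor of monocytes and of a part of cDC2, was lowest on day 4 with 1.68 and 1.62 RPKM and reached 82.9 and 61.2 RPKM on day 7 (4.77 against day 4, limma adjusted p = 0.000986). Itgam, which encodes CD11b, was highest on day 4 with 301 and 369 RPKM, against 62.2 and 103 RPKM on day 0 and 42.5 and 28.7 RPKM on day 7. Irf4, which encodes a factor that cDC2 need, was singled out after its values were seen and had 0.0128 and 0.360 RPKM on day 7. Day 7 against day 4 called 5 higher and 3 lower, beside 5.85% and 6.75% of all genes. Day 4 against day 0 called 2 higher and 2 lower, beside 3.66% and 1.92%.

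Markers of other cells moved with the same days. Of 17 macrophage markers all 17 lay above the receptor level in both day 7 libraries, and 7 to 12 in the 4 earlier ones, where that level was higher. Their summed level was 22132 and 21983 RPKM on day 7, against 4369 and 1664 RPKM on day 0 and 7474 and 5747 RPKM on day 4. Lyz2, the lysozyme gene that neutrophils and monocytes also transcribe, made up most of the earlier sums, with 4195 and 1509 RPKM on day 0, 7104 and 5401 RPKM on day 4, and 7224 and 6272 RPKM on day 7. On day 7, 12 of the 17 were called higher than on day 0 and 1 lower, beside 11.3% and 29.3% of all genes. Apoe, Cd68 and Gpnmb, genes of lipid transport, lysosome and phagocytosis in macrophages, lay between 2009 RPKM (Cd68) and 4795 RPKM (Apoe) in the day 7 libraries. Neutrophil markers summed to 67683 and 8881 RPKM on day 0, 50520 and 37014 RPKM on day 4, and 202 and 206 RPKM on day 7. Erythroid markers summed to 1337 and 1339 RPKM on day 0 and to 1.44 and 0.569 RPKM on day 7, with 8 of 10 at 0 reads there. Sirpa, Cadm1 and Naaa are also transcribed outside cDCs, and the part of macrophages in their day 7 levels was not tested. For the label of the day 7 cells, the 10 genes themselves gave both high and low values: in library III Zbtb46, Xcr1, Mgl2 and Clec9a were under 1 RPKM, and Batf3, Wdfy4, Cd209a, Naaa, Cadm1 and Sirpa between 3.75 and 274 RPKM.

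**Figure D4:**
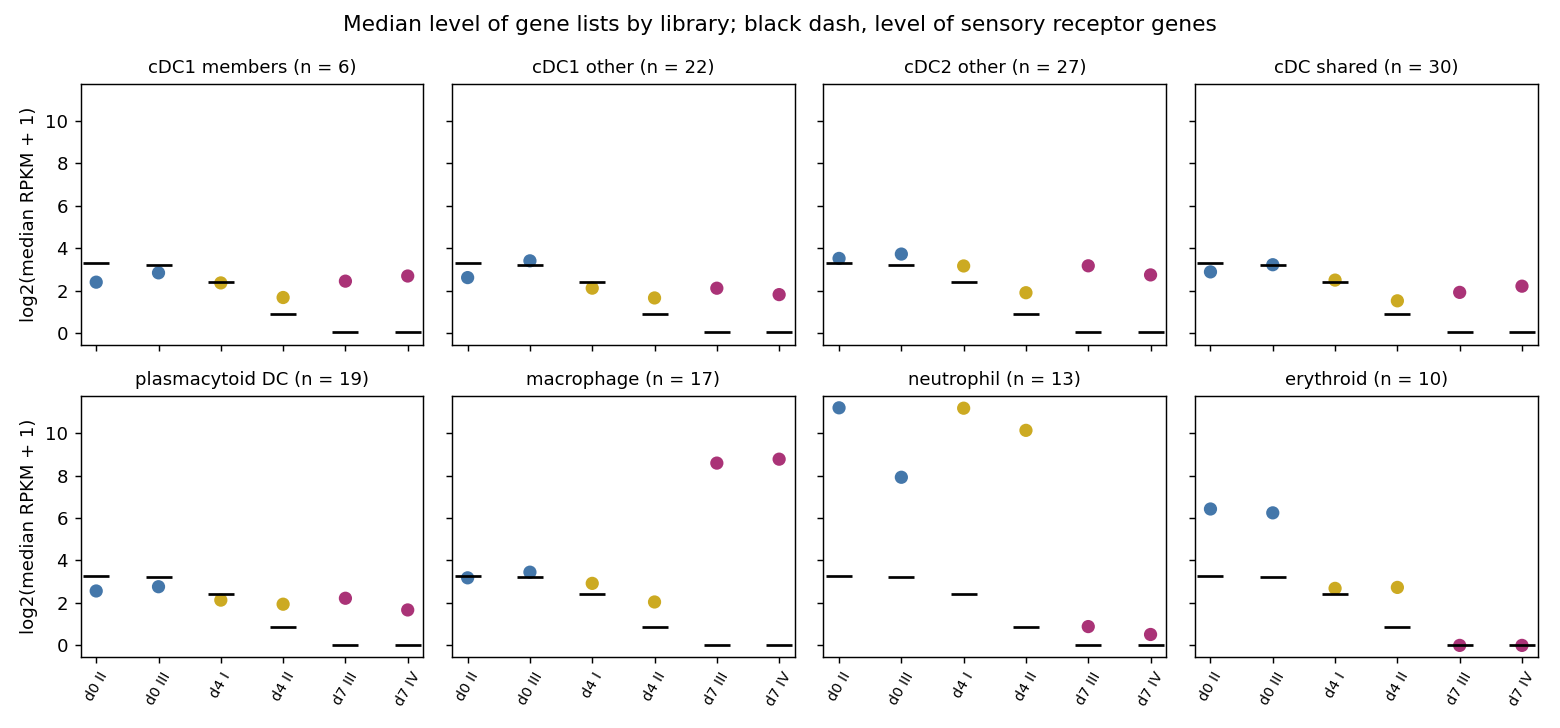
Median level of 8 gene lists in each library as log2(median RPKM + 1), with the receptor level as black dashes and the number of genes in brackets; colours give the day. The macrophage median is 8.08 and 9.92 RPKM on day 0 and 384 and 436 RPKM on day 7, while medians of the 4 lists of cDC genes drawn here are at most 12.2 RPKM in every library. Cd209a, Mgl2 and Sirpa, a further cDC list that is not drawn, have medians up to 21.5 RPKM (day 7 library IV).

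Related genes were checked for reads that could have been counted for the wrong copy. Of the 50-base stretches in the transcripts of Mgl2 (GENCODE M21), 12.2% also occur in Clec10a, its neighbour and closest relative, so that the split of reads between that pair is uncertain. Clec10a had 0.711 and 1.09 RPKM on day 4 and 6.37 and 8.22 RPKM on day 7, and was called higher in that step (2.12, limma adjusted p = 0.0365), opposite to Mgl2. Clec9a shared 4.02% of its stretches with Clec1b, whose exons overlap it, Xcr1 1.63% and Naaa 1.49% with any other gene, and the other 6 genes none. No exon of the 10 genes overlapped a gene on the opposite strand in that annotation.

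Genes whose pattern lay nearest were found by the root mean square distance of log2(RPKM + 1) over the 6 libraries, each profile less its own mean, among 7675 named genes averaging 5 RPKM or more. The nearest gene was Zkscan1 for Zbtb46 (0.149), Tbl2 for Xcr1 (0.0986), Orc5 for Batf3 (0.197), Dguok for Cadm1 (0.115), Brd8 for Mgl2 (0.154), Zdhhc4 for Cd209a (0.161) and Adipor2 for Sirpa (0.112). Within the 10 genes the closest pair was Zbtb46 and Xcr1 (0.319), followed by Batf3 and Naaa (0.389) and by Cadm1 and Sirpa (0.550). These distances describe 6 points that share 3 days and their depth.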

How the data were processed

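RNA-seq was read in 6 libraries, 2 for each of days 0, 4 and 7. The authors deposited RPKM values per gene (reads per kilobase of gene, scaled to a common library total). The submitters' processing notes name TopHat2 2.0.13, SAMtools 1.1 and the build mm9, without their roles; how reads were counted, and with which annotation, is not given in the sources used here. Per the labels' protocols, total RNA was amplified with a SMARTer ultra low input kit and made into Nextera XT libraries. RPKM multiplied by gene length gave whole reads (within 0.01) for 100% of values, so depth and reads per gene were recovered.

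Genes with at least 1 RPKM in at least 2 libraries were tested with limma 3.58.1 in R 4.3.3 on log2(RPKM + 1), with 3 group means over all 6 libraries, moderated variances with a trend, two-sided tests and Benjamini-Hochberg adjustment over all 19279 genes; a call is adjusted p under 0.05. The script was tested on simulated data: it recovered changes in abundant genes at a small spread between replicates, and none in a first simulation with a larger spread and less abundant genes, so a gene that was not called says little. Exact Poisson intervals, at 95%, and a floor of 3 reads cover counting error. The alternatives were other pseudocounts (0.1 and 5) and filters, quantile normalization, voom on recovered reads, thinning to 157797 reads, the receptor level taken off, library weights, fewer libraries and each library left out.

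The 10 genes and all lists were chosen with earlier results of these data known. All 10 genes are named; from other lists at most 4 by mean level and, in each comparison, at most 2 by smallest adjusted p, except genes said to be singled out later. Of 237 list entries 232 were found. Promoter patterns were counted in RefSeq windows, and shared stretches in GENCODE M21 transcripts.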

Additional observations from a re-analysis of the deposited data

How the results depend on the processing

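Each comparison was repeated under 16 alternatives, 6 of them leaving out 1 library. Over single genes, 378 values kept direction and side of the threshold, 33 lost a call, 25 gained one and 26 changed sign. Other filters, library weights and leaving out libraries of the day not compared do not alter the fold change, so direction was fixed there. A changed sign was counted as such whether or not a call was also lost or gained, and a value of exactly 0 as no changed sign. No gene was called for day 4 against day 0, but 1 was called higher under quantile normalization and with the receptor level taken off, and 1 lower after thinning; leaving out libraries gave 0 to 1 higher. For day 7 against day 4 the count called higher went from 0 to 1 with a pseudocount of 0.1 or 5, the filter of 5 RPKM and thinning, to 4 with voom, 3 with the receptor level taken off and 2 with only the 4 libraries compared, and to 0 to 2 with a library left out. The count called lower went from 1 to 0 with no filter, quantile normalization and thinning, to 3 with voom, and to 0 to 1 with a library left out. For day 7 against day 0 the count called higher went from 2 to 1 under quantile normalization, voom and thinning, to 3 with the receptor level taken off, and to 0 to 2 with a library left out. The count called lower went from 3 to 1 with a pseudocount of 5 and with the filter of 5 RPKM, to 0 with no filter, quantile normalization and the receptor level taken off, to 4 with voom, to 2 with library weights or only the 4 libraries compared, and to 0 to 4 with a library left out. With the filter of 5 RPKM and with the receptor level taken off, Zbtb46, Clec9a and Xcr1 were not tested, so their calls could not be kept. Taking that level off also sets values below it to 0, among them every value of Batf3 before day 7 and of Mgl2 on day 0, so calls gained there are no support. The cause of the other changes was not tested. All-gene calls moved with the setting too, so counts of the 10 genes are to be read beside them. For day 7 against day 0, voom called 1333 of 19279 genes higher and 10155 lower. Quantile normalization called 1211 higher and 930 lower, and the receptor level taken off 4738 higher and 486 lower of 10815. Leaving out a library of a compared day leaves 1 library in that group. All-gene calls changed there as well, so a call lost or gained there says little about a gene.

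Signs changed for low genes, and also for Wdfy4, Naaa and Cd209a. Under quantile normalization Xcr1 gave 0.0287 for day 4 against day 0, Zbtb46 0.0846, Clec9a 0.0866 and Wdfy4 0.25 for day 7 against day 4, and Zbtb46 0.0840, Batf3 1.09, Clec9a 0.65 and Mgl2 0.36 for day 7 against day 0. With the receptor level taken off Wdfy4 gave 0.20, 0.88 and 1.07 in the 3 comparisons, and Batf3 2.55, Naaa 0.81 and Mgl2 0.42 for day 7 against day 0. Voom gave -1.03 for Clec9a and -0.11 for Cd209a in day 4 against day 0, and thinning -0.39 for Mgl2 there and 0.37 for Wdfy4 in day 7 against day 4.
With 1 library left out, values ran from -0.49 to 1.32 for Clec9a in day 4 against day 0, -0.63 to 0.97 for Cd209a in day 4 against day 0, -0.000782 to 0.91 for Cd209a in day 7 against day 4, -0.37 to 0.25 for Batf3 in day 7 against day 0, -1.43 to 0.38 for Clec9a in day 7 against day 0 and -0.18 to 1.42 for Cd209a in day 7 against day 0.

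No paired analysis was possible because the groups compared share fewer than 2 replicate numbers. With 2 libraries a group, 3 residual degrees of freedom and day 0 values of 0 to 50 reads, a missing call does not show that levels were alike.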

Other observations

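Genes of plasmacytoid dendritic cells, the interferon-producing type that also grows with Flt3 ligand, were read as a further list. Of 19 genes, all tested, 4 were called higher and 7 lower on day 7 against day 0, beside 11.3% and 29.3% of all genes. Bst2, an antiviral membrane protein that interferon induces in many cells, was at 613 and 714 RPKM on day 7 against 0 and 8.27 RPKM on day 0 (log2 fold change 7.77, limma adjusted p = 0.00193). Pld4, an endolysosomal exonuclease of plasmacytoid and other myeloid cells, rose from 21.2 and 19.0 to 161 and 147 RPKM (2.88, limma adjusted p = 0.00213). Cox6a2, a subunit of respiratory complex IV, had 0 reads on day 0 and 13.6 and 21.5 RPKM on day 7. Siglech, Tlr9 and Spib were singled out after their values were seen. Siglech, a receptor of plasmacytoid cells, had 2.90 and 0 RPKM on day 0, 10.98 and 2.84 RPKM on day 4, and 5.44 and 8.22 RPKM on day 7. Tlr9 went the other way, from 6.25 and 7.30 RPKM on day 0 to 0.0178 and 0 RPKM on day 7. So did Spib, from 10.0 and 11.4 RPKM to 1.47 and 1.18 RPKM.

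Of 21 relatives of the 10 genes, 2 were called higher and 8 lower on day 7 against day 0, shares near the 11.3% and 29.3% of all genes. Clec7a, the beta-glucan receptor Dectin-1 of macrophages and cDC2, rose from 10.9 and 19.5 to 377 and 367 RPKM (4.58, limma adjusted p = 0.000804). Asah1, which encodes acid ceramidase and is the closest relative of Naaa, rose from 17.0 and 25.5 to 207 and 137 RPKM (2.96, limma adjusted p = 0.00248). Cd209c, a relative of Cd209a, fell from 340 and 69.5 to 0.719 and 0.766 RPKM (-6.48, limma adjusted p = 0.00193), while Cd209b, Cd209e and Cd209f had 0 reads on day 7. Xcl1, the ligand of XCR1 made by T and NK cells, also had 0 reads on day 7.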
